A study of Caenorhabditis elegans with 4 samples.

Results

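The PAR polarity network was followed in *C. elegans* adults with and without germline ATTF-6 as 9 genes, chosen by their WormBase symbols: par-1, par-2, par-3, par-4, par-5, par-6, pkc-3, cdc-42 and lgl-1. Each symbol matched a single identifier among the 46934 genes of the count files. RNA of whole adult animals had been measured by mRNA-seq after removal of ribosomal RNA, in 2 control and 2 ATTF-6 depletion libraries. The control animals carried wrdSi51, a transgene on chromosome II that expresses the adaptor TIR1 under the germline promoter of mex-5 together with a degron-tagged blue fluorescent protein. The depletion animals carried the same transgene and in addition GFP::tev::aid::attf-6 at the attf-6 locus on chromosome I, so that auxin directs the degradation of the tagged protein in germ cells. Animals of both groups were grown at 20 °C, transferred to 4 mM auxin as L4 larvae and collected as adults. The depletion therefore covers only late germline development, ATTF-6 of somatic cells is not targeted, and the tagged allele and the loss of the protein cannot be told apart. The labels name these libraries as small RNA, whereas both the library protocol and the RNAs that were counted fit mRNA-seq.

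PAR proteins set up the anterior-posterior axis of the *C. elegans* zygote. PAR-3, PAR-6 and the atypical protein kinase C PKC-3 occupy the anterior cortex with the small GTPase CDC-42, while the kinase PAR-1, the RING-finger protein PAR-2 and LGL-1 occupy the posterior cortex. Both groups exclude each other, largely through phosphorylation by PKC-3 and PAR-1. PAR-4, the worm LKB1 kinase, and PAR-5, an adaptor that binds phosphorylated proteins, are found along the whole cortex and in the cytoplasm. The zygote inherits these RNAs from the oocyte, and several of the proteins are used again in somatic epithelia, so that RNA of a whole adult holds both germline and somatic transcripts.

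Counts on genes summed to between 23923423 and 32096525 in a library, and normalized counts are given as CPM, counts relative to the total of the library after TMM normalization. Depletion was tested against control with the two-sided quasi-likelihood F-test of edgeR for 16591 genes. Adjusted p-values are from this test, after Benjamini-Hochberg, except where DESeq2 is named, and calls use a threshold of 0.05. Nothing in the labels says that libraries of a group came from separate cultures, so the p-values measure the spread between these samples. The depletion libraries stood further from each other than the controls, at 48.7 against 3.73 in chi-square per gene. When 1 library was left out, the lone library of its group was assumed to vary like the other group. The spread then came from the depletion pair alone where a control was left out, and from the closer control pair alone where a depletion library was left out, so that a call gained or lost in such a fit can follow from the spread without a change in the fold. The RNA of attf-6 itself was 163 and 173 CPM in control libraries and 101 and 126 CPM upon depletion, which gave -0.57 on the log2 scale (standard error 0.13, adjusted p = 0.0042, and -0.55 with 0.056 without control replicate 2), although auxin acts on the protein. Markers of the tissues moved with the groups. The 23 germ cell markers, led by cgh-1, summed to 6630.1 and 6709.7 CPM in the control libraries and to 1920.1 and 2305 CPM upon depletion, and all 23 fell with a median of -1.13. The 18 oocyte markers, led by cbd-1, had a median of -2.27, with 16 lower and 2 higher. Sperm genes, also of the germline, went the other way, with 12 of 14 higher, 1 lower and a median of 1.10. The 32 markers of muscle, intestine, hypodermis, neurons and pharynx together rose from 15813 and 15649 CPM to 23911 and 24905 CPM, with 20 genes higher, 0 lower and a median of 0.49. No germ cell or somatic marker was at 0 in any library. By imaging, the paper reports atrophy of the germline in animals that lost ATTF-6 from the L4 stage on. In such bulk samples fewer germ cells and less RNA per germ cell cannot be told apart. The part of this shift in the results on single genes was not tested.

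Upon ATTF-6 depletion, 7 of the 9 network genes fell and none rose. The largest decreases were those of par-3 and par-4, whose RNA was left at 36.3% of the control, and of par-2, left at 39.5%. The partners par-6 and pkc-3 were left at 50.5% and 49.6%, whereas cdc-42 and par-5 kept 75.9% and 76.1%. The change of par-1 and lgl-1 did not pass the test. Of all genes tested 63% were called, 32.1% lower and 30.9% higher, against 77.8% of the network genes called lower. In 8 of the 9 genes both depletion libraries lay below both controls, which held for 38.2% of all genes tested, while the opposite order held for 44.1% of them and for no member. The median log2 fold change of the network was -0.99, and that of all genes tested was 0.16.

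**Figure D1:**
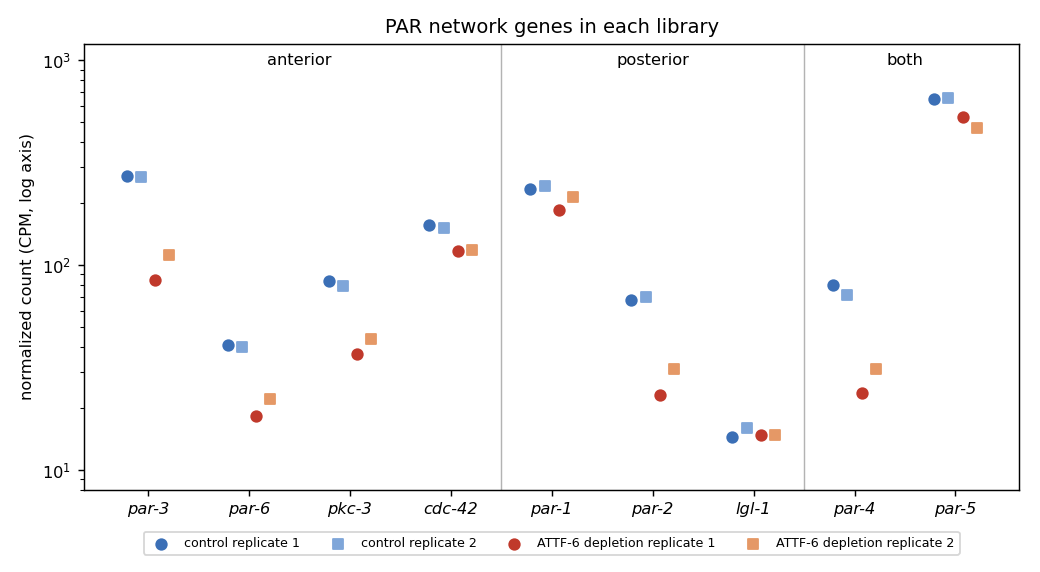
Normalized counts (CPM, log axis) of the 9 PAR network genes in each library, with 1 point per library and the genes grouped by where their proteins act in the zygote. Depletion points lie below control points for every gene except lgl-1, and the distance is greatest for par-3, par-4 and par-2.

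Among the anterior genes, par-3 (WBGene00003918, chromosome III: 5664233 to 5676795, plus strand, WBcel235) encodes the PDZ scaffold that recruits the other anterior proteins. Its normalized count was 271 and 270.0 CPM in the control libraries and 84.1 and 112 CPM in the depletion libraries. The groups lay far apart, with depletion replicate 2 at 1.34 times replicate 1. The log2 fold change of par-3 was -1.46 (standard error 0.15, adjusted p = 4e-05), with a 95% interval from -1.79 to -1.13.

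The gene par-6 (WBGene00003921, chromosome I: 12669380 to 12674449, plus strand) encodes the adaptor that links PKC-3 to PAR-3 and CDC-42. Its counts were 40.7 and 39.6 CPM in control libraries and 18.4 and 22.1 CPM upon depletion. The gene pkc-3 (WBGene00004034, chromosome II: 5380027 to 5384169, plus strand), for the kinase that keeps posterior proteins off the anterior cortex, had 83.5 and 79.0 CPM in control libraries and 36.9 and 43.5 CPM upon depletion. Both genes were at a like fraction of the control in every depletion library. The log2 fold change was -0.99 for par-6 (standard error 0.13, adjusted p = 0.00017) and -1.01 for pkc-3 (standard error 0.12, adjusted p = 8.7e-05).

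The GTPase gene cdc-42 (WBGene00000390, chromosome II: 7616452 to 7618245, plus strand) fell less. It had 158 and 152 CPM in control libraries and 117 and 118 CPM upon depletion. The change of cdc-42 was -0.40 on the log2 scale (standard error 0.10, adjusted p = 0.0079), and its 95% interval, from -0.63 to -0.17, did not reach that of par-6, from -1.27 to -0.70. Without control replicate 1 its value was -0.39 with an adjusted p of 0.18, and without control replicate 2 it was -0.45 with 0.13, so that the fold was kept and the call was not. CDC-42 serves in most cell types beyond its part in the zygote.

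The 3 posterior genes differed among themselves. The gene par-2 (WBGene00003917, chromosome III: 1081401 to 1095082, plus strand) encodes the protein that shields PAR-1 at the posterior cortex from PKC-3. Its counts were 67.7 and 69.9 CPM in control libraries and 23.1 and 31.2 CPM upon depletion, and the higher depletion library was still far below either control. The change of par-2 was -1.34 on the log2 scale (standard error 0.14, adjusted p = 6.1e-05).

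The kinase gene par-1 (WBGene00003916, chromosome V: 14112033 to 14145367, minus strand), whose product drives the asymmetry of cytoplasmic proteins, had 234 and 242 CPM in the control against 186 and 215 CPM upon depletion. The groups did not overlap, but the log2 fold change of -0.25 had a 95% interval from -0.51 to 0.02 and an adjusted p of 0.094. With RLE size factors in place of TMM the value by edgeR was -0.36 with an adjusted p of 0.03, and by DESeq2 it was -0.38 with 0.014, so par-1 was called under these processings. With the spread of the controls alone, the value was -0.15 without depletion replicate 1 (adjusted p = 0.0032) and -0.41 without depletion replicate 2 (adjusted p = 2.4e-08). The annotation gives 18 transcripts for par-1 and 16 for par-3, and counts per gene do not separate them.

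The gene lgl-1 (WBGene00018987, chromosome X: 864097 to 871089, minus strand), the worm counterpart of fly Lethal giant larvae and a posterior protein that acts in part redundantly with PAR-2, was the least abundant and the only X-linked member. It had 14.5 and 16.02 CPM in control libraries and 14.8 CPM in both depletion libraries, and the groups overlapped. The log2 fold change of -0.04 had a 95% interval from -0.37 to 0.29 (adjusted p = 0.81). Under TMM scaling a level between 77.4% and 122% of the control was thus compatible with the data. After scaling to the somatic markers the value was outside that interval, at -0.68 (adjusted p = 0.0042).

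The genes that act in both domains also differed from each other. The LKB1 gene par-4 (WBGene00003919, chromosome V: 18098687 to 18106405, plus strand) had 79.8 and 71.3 CPM in control libraries and 23.8 and 31.0 CPM upon depletion. The groups lay far apart. For par-4 the log2 fold change was -1.46 (standard error 0.14, adjusted p = 3.4e-05).

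The adaptor gene par-5 (WBGene00003920, chromosome IV: 11820506 to 11821924, minus strand) was the most abundant member, with 648 and 655 CPM in control libraries and 529 and 464 CPM upon depletion. It was the only member with its lower depletion value in replicate 2. Its log2 fold change was -0.39 (standard error 0.12, adjusted p = 0.019), and it was kept at -0.42 without control replicate 1 and -0.41 without control replicate 2, where the adjusted p was 0.25 and 0.27. Counts of the members were whole numbers except for par-4 in 1 library, and no member shared exon sequence with another gene on its own strand, so reads divided between copies hardly entered these values.

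The 9 genes fell into different ranges when set beside the marker lists. The log2 fold changes of 5 members, par-2, par-3, par-4, par-6 and pkc-3, lay within the quartiles of the germ cell markers, from -1.84 to -0.94. The other 4, cdc-42, par-5, par-1 and lgl-1, lay above the highest germ cell marker, glh-1 at -0.54. Except for lgl-1, every member lay below the lowest of the 32 somatic markers, at -0.11. Those markers leave out gonad sheath and spermatheca, where fln-1 was at -0.258, below par-1 at -0.246. None fell as far as the quartiles of the oocyte markers, from -2.48 to -1.99.

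**Figure D2:**
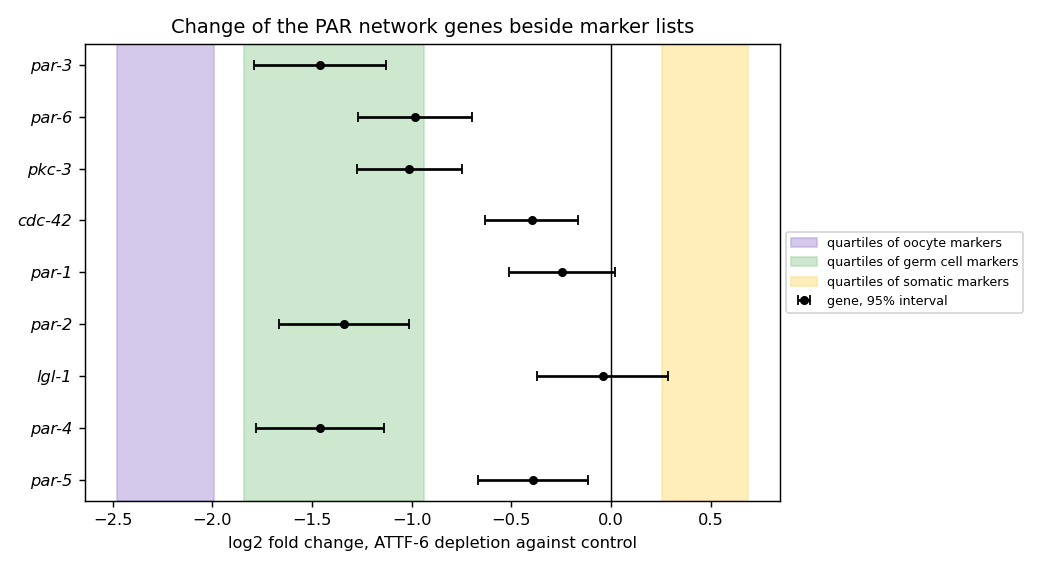
Log2 fold change upon ATTF-6 depletion of each PAR network gene (points, with 95% intervals from edgeR) beside the quartile ranges of the oocyte, germ cell and somatic marker lists (shaded). The points of par-2, par-3, par-4, par-6 and pkc-3 lie in the germ cell range, and those of cdc-42, par-1, par-5 and lgl-1 lie between it and the somatic range.

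Levels were compared between genes as CPM per kilobase of merged exon length, which corrects for the longer exons of par-1 (6697 bases) and par-3 (5353 bases). In the control, par-5 was highest at 518 CPM per kilobase, followed by cdc-42 at 115.1, par-3 at 50.5, par-4 at 40.8, par-1 at 35.6, pkc-3 at 34.8, par-6 at 28.4, par-2 at 26.1 and lgl-1 at 3.92. Only the neighbours par-1 and pkc-3 had overlapping library values in the control. Upon depletion par-1 came next after cdc-42, at 30.0 CPM per kilobase. The library values of par-3, pkc-3, par-4 and par-6, with means between 14.3 and 18.3 CPM per kilobase, then overlapped from each gene to the next. The summed level of the network was 855 and 851 CPM per kilobase in the control and 604 and 576 upon depletion, and par-5 alone held 60.7% of it in the control and 66.7% upon depletion, as means of 2 libraries.

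Ratios within a library do not depend on its scaling. That of pkc-3 to par-6, whose proteins form a complex, was 1.24 and 1.21 in the control and 1.22 and 1.19 upon depletion, and the groups overlapped. The ratio of par-3 to par-6 fell from 1.76 and 1.80 to 1.21 and 1.34. The ratio of cdc-42 to par-6 was 4.07 and 4.03 in the control and 6.66 and 5.62 upon depletion. On the posterior side the ratio of par-2 to par-1, 0.734 in both controls, was 0.315 and 0.368 upon depletion. The ratio of par-1 to par-4, a pair of kinases, was 0.813 and 0.939 in the control and 2.17 and 1.92 upon depletion. Between the domains, the ratio of par-3 to par-2 moved little, from 1.97 and 1.90 to 1.79 and 1.77. The posterior genes together held 7.53% and 7.84% of the network's summed level in the control and 6.68% and 8.29% upon depletion, so that the groups overlapped. These ratios were not tested.

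**Figure D3:**
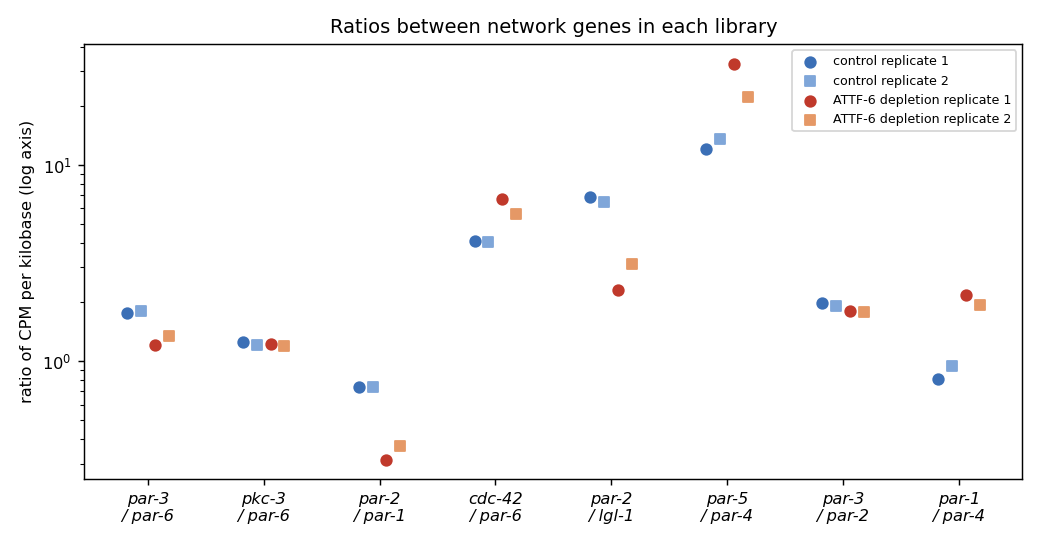
Ratios of CPM per kilobase between pairs of network genes in each library, on a log axis, with 1 point per library. The ratio of pkc-3 to par-6 is alike in the 4 libraries, while that of par-5 to par-4 is 11.96 and 13.5 in the control and 32.7 and 22.05 upon depletion.

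Direct partners and regulators of the PAR proteins were taken from a list of 17 genes, of which 16 were matched and tested, with 14 lower, 2 higher and a median log2 fold change of -0.85. Among all genes tested 32.1% were lower and 30.9% higher. The list held regulators of CDC-42. The gene chin-1, for a GTPase-activating protein that restrains CDC-42 at the posterior cortex, had 40.9 and 46.1 CPM in control libraries and 14.7 and 13.7 CPM upon depletion (log2 fold change -1.61, adjusted p = 1.1e-05). Another such protein, PAC-1, which excludes CDC-42 activity from cell contacts of the embryo, had a log2 fold change of -0.80 for its gene pac-1. The exchange factor gene cgef-1 fell least among them, with -0.38 and an adjusted p of 0.027, and had -0.41 (0.14) without control replicate 1 and -0.39 (0.17) without control replicate 2. The Numb gene num-1 fell with -1.22.

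Of the partners of PAR-4, strd-1, for the STRAD pseudokinase, had a log2 fold change of -0.73. The 3 genes for the scaffold MO25 did not move alike. While mop-25.2 and mop-25.3 fell with -1.15 and -1.18, mop-25.1 was 81.7 and 78.6 CPM in control libraries and 98.9 and 104 CPM upon depletion, a rise of 0.34 on the log2 scale (adjusted p = 0.017). The closest relative of par-5, ftt-2, encodes the other adaptor of that family and rose from 314 and 302 CPM to 461 and 418 CPM (log2 fold change 0.51, adjusted p = 0.004). Without control replicate 1 or 2, mop-25.1 was at 0.35 or 0.29 (adjusted p = 0.24 and 0.33) and ftt-2 at 0.52 or 0.47 (adjusted p = 0.14 and 0.20), so that the rises were of like size and did not pass the test. After scaling to the somatic markers both turned negative, with -0.30 for mop-25.1 and -0.12 for ftt-2, and by DESeq2 mop-25.1 had an adjusted p of 0.23.

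Kinases and phosphatases that act on the network fell. The Aurora A gene air-1, needed to time polarity onset, had 140 CPM in both controls and 41.3 and 42.8 CPM upon depletion (log2 fold change -1.73, adjusted p = 3.7e-06). The genes spat-1, spat-2 and spat-3 are named as suppressors of par-2, and SPAT-1 is the Bora cofactor of Polo kinase. Their log2 fold changes were -1.64, -0.75 and -0.98. The phosphatase gene gsp-2 and its partner sds-22, which counteract PKC-3 at PAR-2, had values of -0.80 and -0.89. The co-chaperone gene cdc-37 had -0.76.

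Cortical flow of actin and myosin carries the anterior proteins to the front of the zygote. Of 23 actomyosin and symmetry-breaking genes, 17 fell, 2 rose and 4 did not pass the test, and the median was -0.75, beside 32.1% lower and 30.9% higher among all genes tested. The myosin heavy chain gene nmy-2, which drives this flow, had 805 and 802 CPM in control libraries and 224 and 258 CPM upon depletion (log2 fold change -1.74, adjusted p = 8.2e-06). The largest decreases of the list were those of rga-3, for a GTPase-activating protein of the cortex, with -2.01, and of ani-2, for an anillin of the germline, with -1.91. The exchange factor gene ect-2 fell with -1.52 and cyk-4 with -1.42. The myosin light chain gene mlc-4 had -0.13, with an adjusted p of 0.29, and it was -0.23 and called with the spread of the controls alone, without depletion replicate 2. The 2 genes that rose were unc-60, for cofilin, with 0.62 and nmy-1, the other nonmuscle myosin heavy chain, with 0.53. Neither was above 0 after scaling to the somatic markers, with -0.01 for unc-60 and -0.11 for nmy-1. Without control replicate 1 nmy-1 was at 0.50 (adjusted p = 0.20) and without control replicate 2 at 0.52 (adjusted p = 0.18), so that the fold was kept and the call was not.

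The outputs of polarity are proteins that PAR-1 and its targets distribute unequally and the machinery that shifts the spindle. All 26 genes of this list were lower in both depletion libraries than in both controls, and 25 passed the test, with a median of -1.81. The same order of libraries held for 38.2% of all genes tested, and 32.1% of them were called lower. The largest decreases were those of cdc-25.1, for a cell cycle phosphatase, with -2.78, and of mex-6, a relative of mex-5, with -2.69. The gene mex-5, whose RNA-binding product forms the gradient that PAR-1 sets, had 530.4 and 536 CPM in control libraries and 104 and 138 CPM upon depletion (log2 fold change -2.14, adjusted p = 7.1e-06), and its promoter also drives TIR1 in both groups. The germline fate genes pie-1 and pos-1 fell with -2.27 and -2.68, and the Polo kinase gene plk-1 with -2.30. The G protein beta subunit gene gpb-1, at -0.17 and with an adjusted p of 0.19, was the exception to the calls. With the spread of the controls alone it was called at -0.12 without depletion replicate 1 and at -0.29 without depletion replicate 2. The list overlaps the oocyte markers in 3 genes, spn-4, oma-1 and oma-2.

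The other lists hold genes that are used in many tissues. Their counts stand beside 32.1% lower and 30.9% higher among all genes tested, and no difference between lists was tested. Among 12 tested genes for relatives and effectors of CDC-42, 6 fell and 1 rose, and the median was -0.27. The kinase gene pak-2 fell with -1.58 and toca-2, for an adaptor of actin nucleation, with -1.37, while its relative toca-1 rose with 0.66. Of 10 genes for AMPK subunits and related kinases, which LKB1 kinases such as PAR-4 are known to activate, 2 fell and 2 rose, with a median of 0.21. Those that fell were pig-1, with -1.49, and aakb-2, with -0.66, and those that rose were aakg-4, with 0.76, and aak-2, with 0.38. Of 17 epithelial polarity genes, 6 fell, 4 rose and 7 did not pass the test, with a median of -0.03. The catenin genes hmp-2 and hmp-1 fell with -1.60 and -1.17 and lin-7 with -1.34, whereas the spectrin gene sma-1, mpz-1 and the junction gene ajm-1 rose with 0.69, 0.61 and 0.39. The junction scaffold gene dlg-1, at 0.20, and the ezrin gene erm-1, at -0.19, did not pass the test. With the spread of the controls alone, dlg-1 was called at 0.23 without depletion replicate 1, and erm-1 at -0.15 and -0.30 without depletion replicate 1 and 2. Rises in these lists depended on the scaling, and after scaling to the somatic markers none of their genes was called higher and the AMPK-related list had a median of -0.42. The AMPK-related genes called higher numbered 1 without control replicate 1, 0 without control replicate 2 and 6 without depletion replicate 1, and the epithelial ones 1 and 2 without control replicate 1 and 2, in fits that differ in where the spread comes from. The value of aak-2, for example, was 0.50 without control replicate 1 and did not pass (adjusted p = 0.063).

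**Figure D4:**
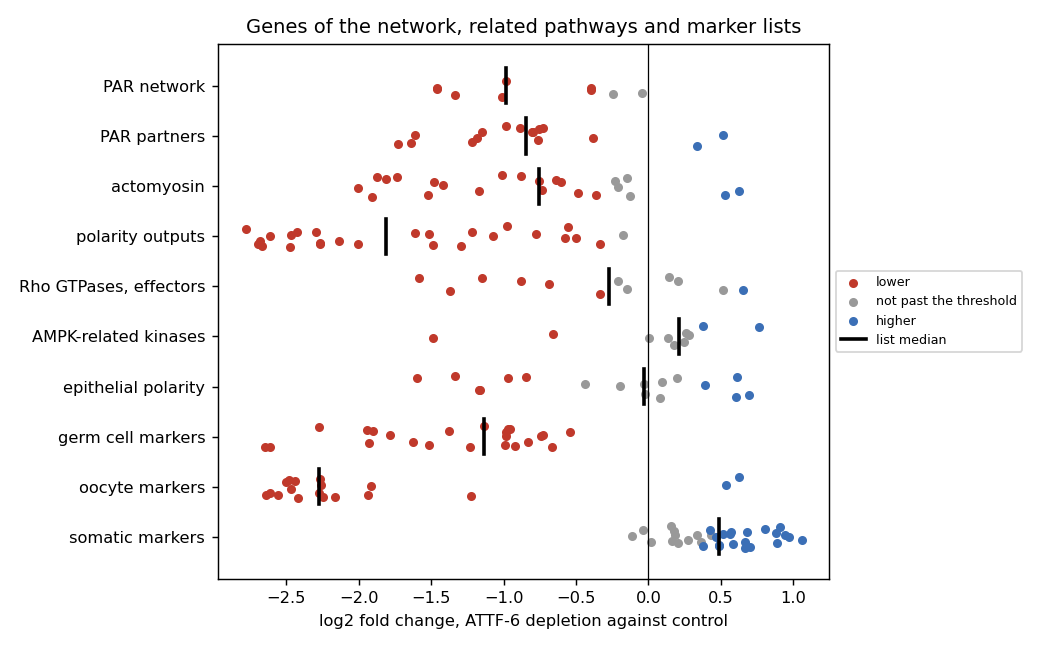
Log2 fold change of each tested gene of the PAR network, of 6 related lists and of 3 marker lists, with 1 point per gene, coloured by edgeR's call at an adjusted p of 0.05, and a bar at each list's median. The network (median -0.99) and its partners (-0.85) lie near the germ cell markers (-1.13), the polarity outputs (-1.81) lie lower, and the AMPK-related and epithelial lists straddle 0.

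The genes closest to par-3 in their pattern over the 4 libraries, by Euclidean distance of centred log2 CPM among 7780 protein-coding genes with a mean of at least 10 CPM, were wrm-1, npp-14 and taf-2, with distances of 0.0257, 0.0312 and 0.0326. Their log2 fold changes were -1.45, -1.46 and -1.43. Those closest to lgl-1, the member that fell least, were Y37B11A.3, lin-10 and pyk-1, with log2 fold changes of -0.02, -0.02 and -0.06. With 4 libraries such likeness is common, and 304 genes lay within a distance of 0.2 of par-3 and 328 within the same distance of lgl-1.

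Each network gene kept its sign under every processing tried with all 4 libraries. The values of par-3 lay between -2.10 and -1.28 over all alternatives, those of par-4 between -2.10 and -1.29 and those of par-2 between -1.98 and -1.15. The calls of these 3 genes and of par-6 and pkc-3 held under every alternative. Scaling the libraries to the summed counts of the somatic markers, most of them from muscle genes, lowered the median of all genes by 0.63 on the log2 scale. It left 1527 genes higher and 7456 lower, in place of 5120 and 5332, and all 9 network genes were then called lower, lgl-1 at -0.68 with an adjusted p of 0.0042.

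**Figure D5:**
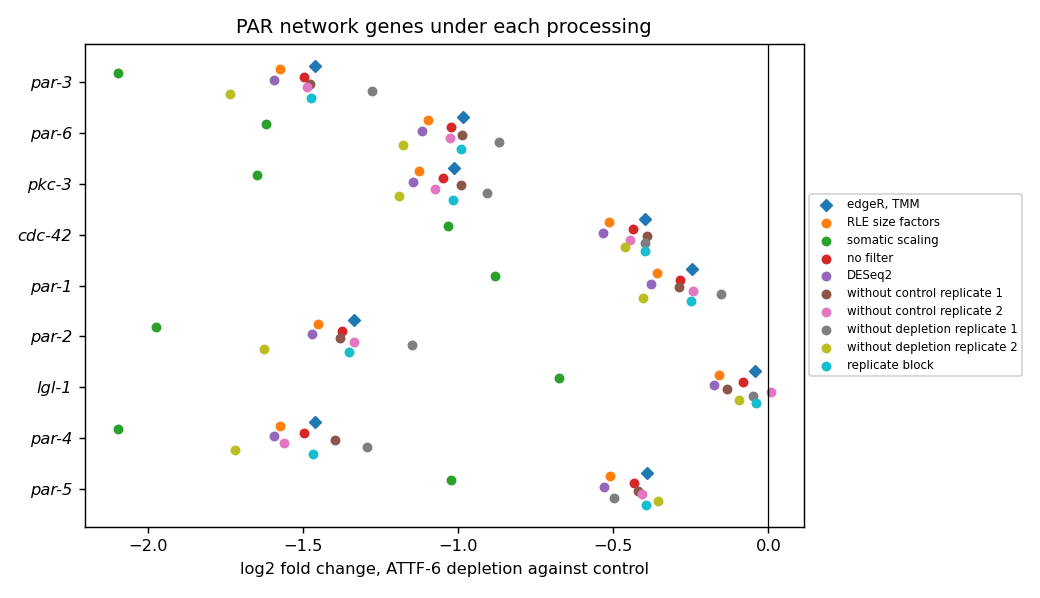
Log2 fold change of each PAR network gene under the main processing (diamonds) and 9 alternatives (circles). Somatic scaling gives the lowest value of every gene, and par-3, par-4 and par-2 have the lowest values throughout.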

How the data were processed

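Groups and replicate numbers follow the sample titles. Reads had been trimmed (TrimGalore) and aligned to WormBase WS279 (STAR) by the authors, who dropped pairs with only 1 mate aligned and counted the rest by strand with featureCounts, splitting multi-mapped reads. The deposited values are estimated counts per gene without normalization, and tool versions are not given in the sources used here. The 181 transposon sequences in each file, quantified with Salmon, were kept out.

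Symbols, coordinates and exon lengths came from Ensembl 115 (WBcel235), which held 46924 of the 46934 identifiers, and 215 of 217 listed genes were matched. Deposited counts were rounded, filtered with filterByExpr (minimum count 10, minimum total 15), scaled by TMM (factors 0.949 to 1.02) and tested with edgeR 4.0.16 in R 4.3.3, after the fits had been tested on simulated data. That simulation changed 200 genes, equally up and down, with the same spread in both groups. It therefore does not cover changes as broad, or a spread as unequal, as in these libraries. The standard error is the size of the log2 fold change over the square root of F. Alternatives were RLE factors, scaling to the summed counts of 32 somatic markers, no filter, DESeq2 1.42.0, leaving out each library and a replicate block. Members and lists were chosen with earlier results of these data known.

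Named genes are the members and partners, the 2 largest rises and falls among called genes of each other pathway list, the most abundant gene of each marker list, attf-6, and the 3 genes nearest in pattern to the members with the largest and smallest fall. The genes nmy-2, mlc-4, ect-2, cyk-4, mex-5, pie-1, pos-1, plk-1, gpb-1, hmp-1, ajm-1, dlg-1, erm-1 and glh-1 were added after their values were seen.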

Additional observations from a re-analysis of the deposited data

How the results depend on the processing

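Of the network genes, par-3, par-6, pkc-3, par-2 and par-4 kept their calls under all 9 alternatives. Without 1 library each, cdc-42 lay between -0.46 and -0.39, par-5 between -0.50 and -0.36, par-1 between -0.41 and -0.15 and lgl-1 between -0.13 and 0.01 (0.008 without control replicate 2). Without either control, cdc-42 and par-5 kept their fold and lost their call, with the spread taken from the depletion pair alone. The call of par-1 was gained with RLE factors (-0.36), DESeq2 (-0.38) and somatic scaling (-0.88), and that of lgl-1 with somatic scaling (-0.68). The median shift of all genes from the main fit was -0.12 with RLE factors, -0.13 with DESeq2 and -0.63 with somatic scaling. The cause of the gained calls was not tested. Of the network, 8 genes were lower with RLE factors, 8 with DESeq2 and 9 with somatic scaling, against 7 in the main fit. Over all genes, 5697, 5437 and 7456 were lower in these settings, against 5332 in the main fit.

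Somatic scaling, which assumes that the summed RNA of the somatic markers was equal, left 1527 genes higher and 7456 lower. It turned mop-25.1 (-0.30), ftt-2 (-0.12), unc-60 (-0.006), nmy-1 (-0.11), aak-2 (-0.25), mpz-1 (-0.026), act-5 (-0.14), egl-3 (-0.074), myo-1 (-0.44), dlg-1 (-0.44) and ajm-1 (-0.24) negative. It gave medians of -1.62 for the network, -1.48 for partners, -1.39 for actomyosin, -2.45 for outputs, -0.90 for CDC-42 relatives and effectors, -0.42 for AMPK-related and -0.66 for epithelial genes, with 0 of the partners, actomyosin, effector, AMPK-related and epithelial genes higher, and 6 AMPK-related and 13 epithelial genes lower.

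With RLE factors the medians were -0.96 for partners, -0.39 for effectors and -0.15 for epithelial genes, and 1 partner, 1 AMPK-related and 2 epithelial genes were higher. With DESeq2 they were -0.98 for partners, -0.89 for actomyosin, -0.41 for effectors and -0.16 for epithelial genes, and 1 partner, 0 AMPK-related and 2 epithelial genes were higher. Without the filter the effectors had -0.31.

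Leaving out 1 library, the median lay between -1.18 and -0.87 for the network, -1.05 and -0.84 for partners, -0.91 and -0.77 for actomyosin, -2.01 and -1.69 for outputs and -0.34 and -0.25 for effectors. Genes higher numbered 0 to 2 partners, 1 to 2 actomyosin, 0 to 6 AMPK-related and 1 to 5 epithelial genes. Likewise myo-1 lay between -0.125 (without depletion replicate 2) and 0.422, Y37B11A.3 between -0.102 and 0.026, and lin-10 between -0.095 and 0.009 (both highest without control replicate 2).

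Same-numbered libraries did not deviate together (correlation 0.015 over 7974 genes), so the numbers are not taken as pairs. With the replicate block 7 network genes were lower, the calls of the 9 were those without it, and 5317 genes were higher and 5432 lower. With 2 libraries a group, the 95% intervals of the 9 genes limit how small a change could be called.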

Other observations

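Of the 11 genes of the network and its related lists that were called higher, 7 lie on chromosome X: mop-25.1, ftt-2, nmy-1, toca-1, aak-2, aakg-4 and ajm-1. Among the 20 X-linked genes tested in these lists 7 were higher, 4 lower and 9 without a call, with a median log2 fold change of 0.17. Among the 92 autosomal genes 4 were higher and 73 lower, with a median of -0.999. Over all protein-coding genes tested, 34.6% of the 2130 X-linked genes were higher and 13.8% lower (median 0.36), and 30.5% of the 13165 autosomal genes were higher and 36.8% lower (median 0.08). The share of X-linked list genes called higher, 35%, was thus near that of all X-linked genes, while the autosomal list genes were lower more often, at 79.3%, than autosomal genes as a whole. Germ cells of *C. elegans* are known to keep the X chromosome largely silent at many but not all stages. The comparison was made after the values were seen and was not tested.

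Several pairs of related genes moved apart, also chosen after their values were seen. The ratio of par-5 to ftt-2 per exon length was 2.13 and 2.23 in the control and 1.18 and 1.14 upon depletion, while their summed level was 757 and 754 CPM per kilobase against 776 and 692. The ratio of nmy-2 to nmy-1 fell from 1.503 and 1.47 to 0.309 and 0.311. For toca-2 to toca-1 it fell from 2.36 and 2.58 to 0.561 and 0.646, and for mop-25.2 to mop-25.1 from 0.940 and 1.03 to 0.352 and 0.350. Such ratios do not depend on the scaling of a library.

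Among the other markers, the 13 early embryo genes, led by pes-10, summed to 7.83 and 9.43 CPM in the control and to 1.06 and 0.503 CPM upon depletion, and 7 of them were at 0 in at least 1 library. The 4 that could be tested all fell, while 32.1% of all genes tested were called lower. The filter kept pes-10 through its controls alone, with counts of 149 and 133 against 7 and 4 upon depletion. Genes this scarce can pass the filter only where they are high, so these falls carry no weight of their own. The 14 sperm genes, led by spe-15, comprised 12 that rose and 1 that fell, around a median of 1.10. The medians were 0.74 for muscle (led by unc-54), 0.49 for intestine (act-5), 0.26 for hypodermis (col-19), 0.57 for neurons (egl-3), 0.20 for pharynx (myo-1) and 0.36 for gonad sheath and spermatheca (fln-1), and those of all but muscle fell below 0 when libraries were scaled to the somatic markers themselves. That scaling follows mainly the muscle genes, which held 11860 of the 15813 CPM summed over these markers in control replicate 1. Without depletion replicate 2 the pharynx median was -0.10. The part of embryos inside the adults in the levels of the network genes was not tested.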
